A study of Rattus norvegicus with 6 samples.

Results

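The splicing factors and heterogeneous nuclear ribonucleoproteins (hnRNPs) described here were every probe set with 1 annotated gene symbol beginning Srsf and a digit, Hnrnp, Sf3a or Sf3b and a digit, Snrp, or U2af. The rule used symbols and no measured value. It gave 81 probe sets for 50 genes, of 31042 probe sets and 14217 genes in the table, and a further 8 probe sets annotated to several genes including one of these families were left out. The cells were rat aortic smooth muscle cells (passages 3 to 5), grown with 10% serum, then held for 24 h with 0.1% albumin and no serum, and used as confluent monolayers. The 3 static cultures were set against 3 that spent 24 h in a parallel-plate chamber under laminar flow, at a shear stress of 14 dyn/cm2, and each sheared sample carried the pairing number of 1 static sample. No animal, culture or day is named for the pairs, so the p-values reflect only how far these samples scatter, and that scatter may be technical.

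Before most messenger RNAs leave the nucleus, the spliceosome removes their introns. Its small nuclear ribonucleoprotein particles each carry a ring of Sm proteins on a small nuclear RNA; U2AF marks the 3′ splice site, and SF3A and SF3B hold the U2 particle on the branch point. SR proteins (Srsf genes) bind exons through RNA recognition motifs and recruit this machinery through arginine- and serine-rich tails, whereas many hnRNPs coat the transcript and often have the opposite effect on an exon. Many of these genes limit their own messenger RNA by including a poison exon, which sends it to nonsense-mediated decay. In smooth muscle, alternative exons of tropomyosin, actinin and other contractile genes are known to be set by such regulators.

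Correlations of log2 signal over all probe sets that were not controls were 0.989 to 0.992 among static arrays and 0.918 to 0.936 between groups. Shear array 1 correlated at 0.985 with each of the other shear arrays, which correlated with each other at 0.993. Of 10 smooth muscle markers 6 fell under shear stress and 0 rose (limma, 0 also at an unadjusted p below 0.05), and their summed signal was 5326 to 5901 on static and 4150 to 4255 on shear arrays. Tagln, an actin-binding protein of smooth muscle, had signals of 2684 and 2815, and Acta2, smooth muscle actin, 1811 and 836.1 (means of 3 static and 3 shear arrays). Pecam1, Kdr and Nos3, which define endothelium, and Ptprc, the common leukocyte antigen, had mean signals of at most 4.33 in either group. The summed signal of 10 endothelial markers was 219.5 to 251.6 on static and 213.1 to 226.4 on shear arrays, with 1 risen and 1 fallen of 5 tested. Flt1 rose (means of 27.8 on static and 53.6 on shear arrays), Egfl7 fell (110.5 and 79.4), and Erg did not pass (44.1 and 40.6). Flt1 rose on 1 of 3 tested probe sets and Egfl7 fell on 1 of 2, and their others did not pass. Leukocyte markers (9 measured, 2 risen and 1 fallen of 5 tested) summed to 202.9 to 251.9 and 150.3 to 194.6. Cd68 (10.1 and 25.8) and Coro1a (4.83 and 12.2) rose, and Cd14 (181.9 and 107.9) fell. Fibroblast markers (7 measured and tested, 2 risen and 3 fallen) summed to 4154 to 6081 and 3693 to 6732. Dcn (1768 and 2350) and Dpt (105.3 and 156.0) rose in 3 of 3 pairs, with overlapping groups. Both genes were lowest in pair 1 in each group, Dpt at 26.3 on static and 38.3 on shear array 1. Pdgfra (489.7 and 92.6), Scara5 (434.1 and 181.0) and Twist2 (37.8 and 2.97) fell. As a sign of RNA quality, beta-actin had a log2 ratio of its 3′ over its 5′ signal of 0.255 ± 0.036 in static and 0.393 ± 0.0281 in sheared cells (SD, n = 3; exact permutation p = 0.1, two-sided, the smallest possible). For Gapdh the ratios were 0.166 ± 0.00969 and 0.156 ± 0.00621 (SD, n = 3; exact permutation p = 0.3). In RNA from whole cultures, fewer cells of a type and less RNA per cell cannot be told apart. The part of these differences in the results below was not tested.

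Under shear stress 11 of 17 hnRNP genes fell on their brightest probe set, led by Hnrnpa2b1, Hnrnpr, Hnrnpll and Hnrnph3. Of the 4 Hnrnpa2b1 probe sets, however, 2 did not pass. Of the SF3A and SF3B subunits 3 of 9 rose, as did 3 of 10 SR protein genes, and 4 of 10 Sm and snRNP genes fell. Among all genes tested 27.8% rose and 30.1% fell. The risen counts of the SF3 and SR classes and the fallen count of the Sm class were thus near the background. The fallen Sm count was 1 after median centring, without pair 2 or without pair 3. A probe set was called when limma's moderated test on log2(signal + 16), with the pair as a block, gave a Benjamini-Hochberg adjusted p below 0.05 over all 21729 probe sets tested. Of the 81 member probe sets 79 passed the filter on low signal, and 41 of these (51.9%) were called, beside 52.8% of all probe sets tested. The share called in either direction was thus near the background. There were 14 risen (17.7%) and 27 fallen (34.2%), beside 24.3% risen and 28.5% fallen of all probe sets. Where the brightest probe set stood for a gene, 9 of 49 genes rose (18.4%), 18 fell (36.7%) and 22 did not pass, beside 27.8% risen and 30.1% fallen (57.9% called) of all 11248 genes. The median log2 fold change of the 49 genes was -0.105, beside -0.053 for all genes. Centring each array on its median moved the median of all probe sets from -0.067 to 0.082 and that of the member genes to 0.044, so changes of this size have no settled direction. With that centring 11 member genes rose and 11 fell, and of all probe sets 6814 rose and 4720 fell, against 5283 and 6188 without it and 5951 and 5399 after quantile normalization. Without pair 2, 6 member genes rose and 11 fell, and without pair 3, 5 rose and 12 fell. Changes of at least 2-fold on this scale were called for 10 member probe sets (12.7%; 14.9% of all). All 10 fell and 0 rose, beside 8.95% and 5.96% of all probe sets. Static and shear arrays did not overlap for 47 of the 79 (59.5%; 60.0% of all).

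**Figure D1:**
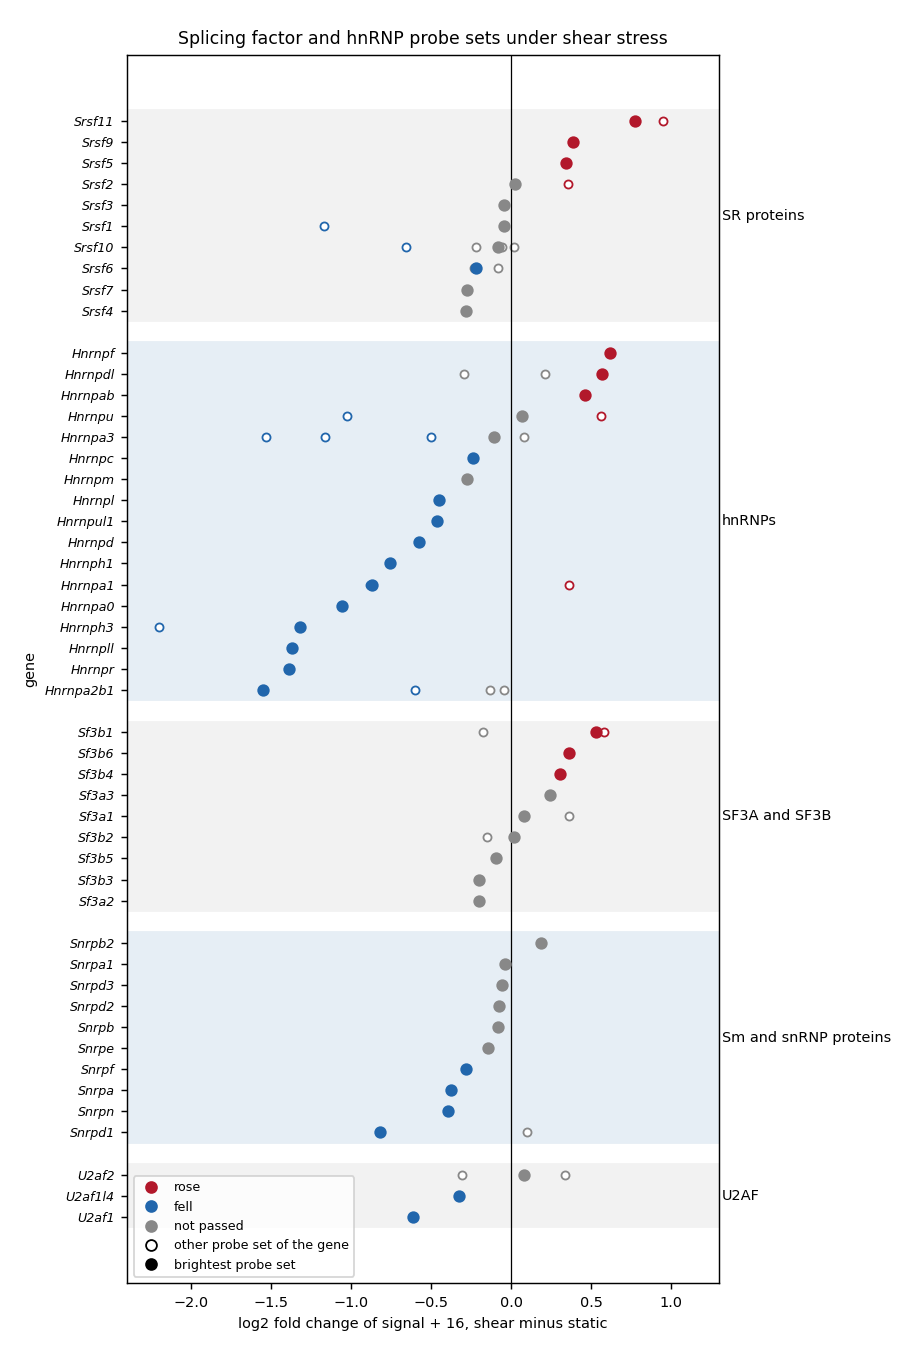
The log2 fold change of signal + 16, shear minus static, is plotted for each of the 79 tested probe sets, with 1 row per gene and the genes grouped by class. Filled points are the brightest probe set of a gene, open points its other probe sets; red points rose, blue points fell and grey points did not pass. The hnRNP rows reach furthest to the left, to -2.21 for a probe set of Hnrnph3, and the SF3A and SF3B rows hold no blue point.

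Among SR proteins, 3 of 10 tested genes rose, 1 fell and 6 did not pass, with a median of -0.046. These counts stand beside 27.8% risen and 30.1% fallen of all genes tested. Without pair 2 or without pair 3, 1 rose and 0 fell. Srsf11, an SR-related protein of the 3′ splice site, had the largest rise of all member genes. Its signal was 655.8, 596.9 and 560.5 on static arrays 1 to 3 and 914.0, 1141.9 and 1095.7 on shear arrays 1 to 3. Every shear value lay above every static one, for a rise of 0.78 on the log2 scale (95% interval 0.53 to 1.03, adjusted p = 0.000586). A second Srsf11 probe set rose by 0.95, from 130.6 ± 27.9 to 266.9 ± 52.3 (SD, n = 3). Both probe sets changed least in pair 1. The brighter one gave 0.47, 0.92 and 0.95 in pairs 1 to 3, and the other gave 0.32, 1.32 and 1.20.

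Srsf9, a short SR protein that can act against Srsf1 in the choice of 5′ splice sites, had signals of 437.8, 415.8 and 406.5 on static and 491.9, 577.2 and 596.9 on shear arrays. The groups did not overlap, and the rise was 0.39 (adjusted p = 0.0133). Srsf5, an SR protein that binds exonic enhancers, had signals of 682.5, 599.2 and 643.1 on static and 751.5, 843.9 and 863.5 on shear arrays. These groups did not overlap either, and the rise was 0.35 (adjusted p = 0.0148). The Srsf9 and Srsf5 calls were lost without pair 2 and without pair 3, in fits that rested on the remaining 2 pairs.

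Srsf6, another SR protein that binds exonic enhancers, fell by 0.22 on its brightest probe set (adjusted p = 0.0366), from 773.9, 933.0 and 913.8 to 661.0, 827.9 and 753.7. The groups overlapped although every pair was lower under shear, and the call was lost without the pair block (adjusted p = 0.116) and without pair 2 or pair 3. After median centring the value was -0.07, and its other probe sets, at -0.08 and -0.23, did not pass. Srsf4 (-0.28, adjusted p = 0.0525, and 0.031 after quantile normalization), Srsf2 (0.02) and Srsf10 (-0.08) did not pass on their brightest probe sets. A second Srsf2 probe set passed as risen (0.36, adjusted p = 0.0473) in 2 of 3 pairs, but not after quantile normalization (0.29), with a pseudocount of 1 (0.37), with another filter, in a fit with no intensity trend, or with pair 2 or pair 3 left out. Srsf3 and Srsf7 had static means of only 17.3 and 26.0, and neither passed (-0.05 and -0.28). The probe set annotated to the pseudogene Srsf7-ps4 lay below the filter.

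Of 17 hnRNP genes 11 fell, 3 rose and 3 did not pass, with a median of -0.463. Beside them, 30.1% of all genes tested fell and 27.8% rose. With the brightest probe set kept, between 9 and 13 fell under every alternative setting tried, 13 after quantile normalization and 9 after median centring, and 3 rose under each. When probe sets were averaged instead, Hnrnpdl was no longer called as risen. On probe sets, 18 of 31 fell and 5 rose, beside 28.5% fallen and 24.3% risen of all probe sets tested. The 5 genes with the largest falls on their brightest probe set were Hnrnpa2b1, Hnrnpr, Hnrnpll, Hnrnph3 and Hnrnpa0.

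Hnrnpa2b1 encodes the A2 and B1 core hnRNPs, which bind pre-mRNA and also sort RNA in the cytoplasm. Its brightest probe set read 1873.2, 1549.1 and 1598.6 on static and 476.3, 617.6 and 590.9 on shear arrays. The groups lay far apart, with a log2 fold change of -1.55 (95% interval -1.84 to -1.27, adjusted p = 3.58e-05). This was the larger of 2 falls among its 4 probe sets, and the other 2, at -0.04 and -0.13, did not pass. Hnrnpr, a relative of Syncrip that binds RNA through several recognition motifs, read 996.4, 955.5 and 961.6 against 381.4, 330.2 and 371.4. The change was -1.39 (adjusted p = 1.01e-05), with -1.35, -1.49 and -1.34 in pairs 1 to 3.

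Hnrnpll, a relative of Hnrnpl known for directing Ptprc splicing in lymphocytes, read 192.8, 216.3 and 191.2 against 66.9, 73.3 and 62.3. The change was -1.37 (adjusted p = 3.12e-05), with -1.33, -1.38 and -1.40 in pairs 1 to 3. Hnrnpl itself, which binds CA-rich RNA, fell by 0.45 (adjusted p = 0.00433), from 1135.3, 1103.4 and 1118.0 to 700.3, 897.1 and 860.7. Whether the falls of Hnrnpl and Hnrnpll differ was not tested.

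Hnrnph3, of the G-run binding H and F family, read 120.8, 124.5 and 125.2 against 45.7, 31.7 and 43.0 on its brightest probe set, a change of -1.32 (adjusted p = 8.87e-05). Its second probe set read 94.8, 106.7 and 110.4 against 8.9, 12.6 and 8.6, a ratio of 0.0965 and a change of -2.21 (adjusted p = 7.47e-06), the largest of any member probe set. Sheared signals near 10 were close to the low end of the table, and log2 changes from such signals depend on the pseudocount. Hnrnph1 of the same family fell from 1361.3 ± 33.5 to 799.5 ± 38.9 (SD, n = 3; -0.76, adjusted p = 7.87e-05). Hnrnpf, also of this family, went the other way: it read 865.6, 985.2 and 949.1 on static and 1317.8, 1506.0 and 1500.1 on shear arrays, and rose by 0.62 (adjusted p = 0.000165) and by 0.60, 0.60 and 0.65 in the pairs. Hnrnpf had 1 probe set, on which the groups did not overlap.

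Hnrnpa0, an A/B-type hnRNP that binds AU-rich messenger RNA, read 1654.6, 1906.6 and 1834.8 against 727.6, 852.1 and 1007.7. It fell by 1.06 (adjusted p = 3.53e-05). Hnrnpa1, which competes with SR proteins for exons, fell on 2 of its 3 probe sets and is described with the other multi-probe genes below. The AU-rich element binding protein Hnrnpd fell from 492.1 ± 39.6 to 325.5 ± 27.5 (SD, n = 3; -0.57, adjusted p = 0.00108). Its close relatives went the other way. Hnrnpdl read 836.8, 921.9 and 918.2 against 1210.9, 1328.7 and 1464.3, and rose by 0.57 (adjusted p = 0.000351). Hnrnpab read 2152.5, 2072.5 and 2281.5 against 2664.3, 3182.5 and 3149.6, and rose by 0.46 (adjusted p = 0.000908). In neither did the groups overlap, and both rose in 3 of 3 pairs, though the average of the 3 Hnrnpdl probe sets did not pass (0.16).

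Some of the smaller falls depended on the setting, although that of Hnrnpl was called in all 13 settings. Hnrnpul1, a relative of the scaffold protein Hnrnpu, fell by 0.46 (adjusted p = 0.00978) and lost the call after median centring (-0.31, adjusted p = 0.0504) and without pair 2. Hnrnpc, which coats uridine tracts, fell by 0.24 (adjusted p = 0.037), and lost the call after median centring (-0.09), without the block (adjusted p = 0.0642) and without pair 2 or pair 3. Hnrnpm did not pass (-0.27, adjusted p = 0.0549), but passed as fallen without the block (adjusted p = 0.0465) and after quantile normalization (-0.32).

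**Figure D2:**
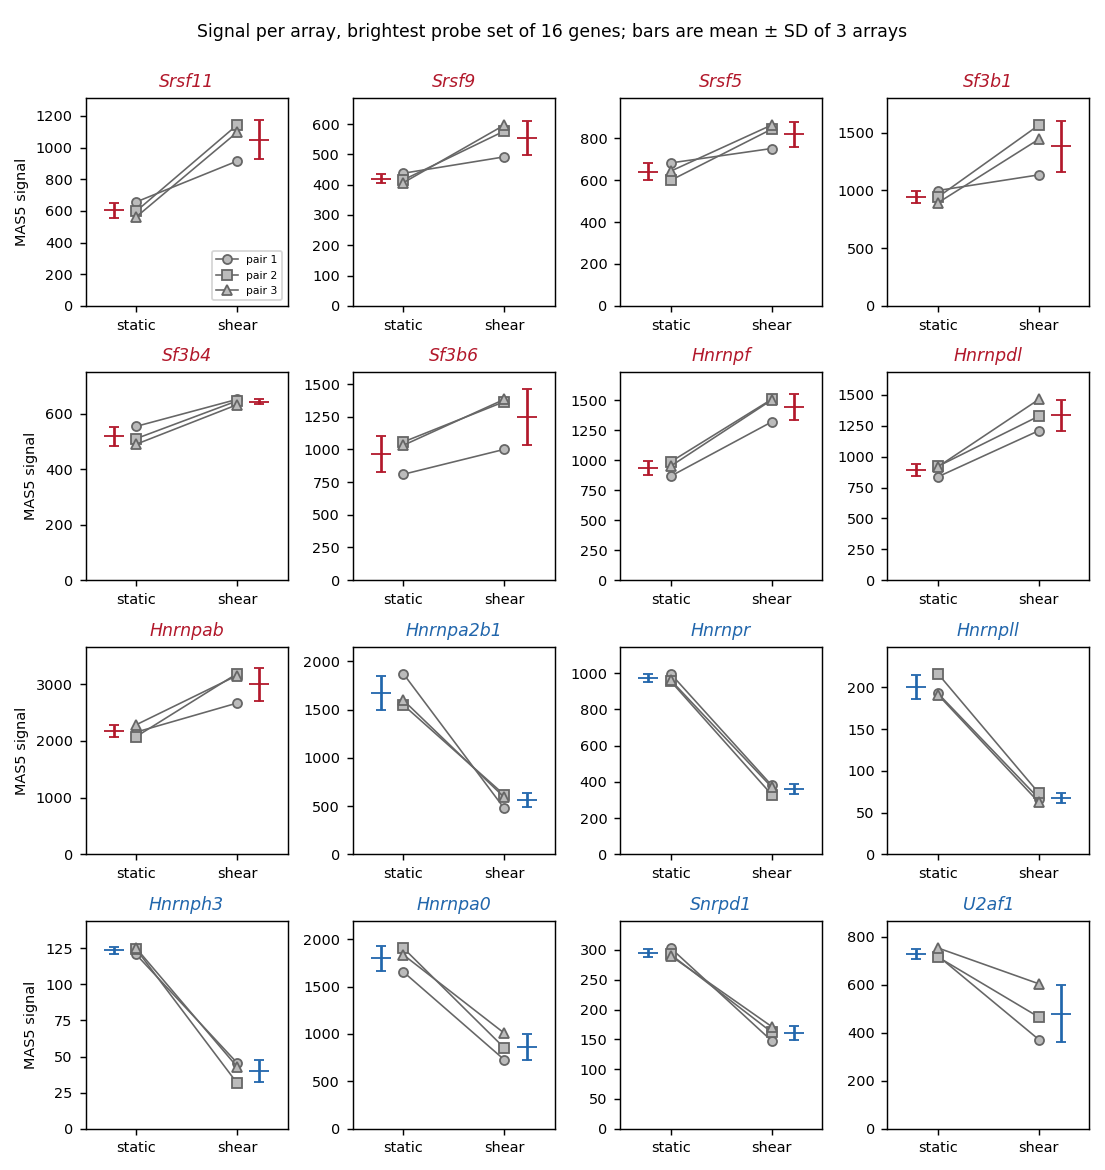
MAS5 signal on a linear axis from 0 is plotted for the brightest probe set of 16 genes in each of the 6 arrays, with lines joining the static and sheared sample of a pair and bars for the mean ± SD of 3 arrays. Gene names in red rose and those in blue fell. The lines of Hnrnpr and Hnrnpll are nearly parallel, whereas Srsf11, Srsf9 and Sf3b1 rise least in pair 1.

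The branch point complexes had 3 risen genes, 0 fallen and 6 not passed of 9, with a median of 0.079. Of all genes tested 27.8% rose and 30.1% fell. None was lower at an unadjusted p below 0.05 in limma either, but after quantile normalization Sf3b3 passed as fallen (-0.25, limma adjusted p = 0.0459). Sf3b1 encodes the large scaffold of SF3B that contacts the branch point. Its brightest probe set read 999.1, 941.7 and 892.4 on static and 1134.7, 1566.0 and 1443.6 on shear arrays. The groups did not overlap, and the rise was 0.53 (adjusted p = 0.00483), with 0.18, 0.72 and 0.68 in pairs 1 to 3. A second probe set gave 0.58, with 0.14, 0.90 and 0.72 in the pairs. The third did not pass (-0.18), nor did the average of the 3 (0.31, limma adjusted p = 0.0612).

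Sf3b6, the small subunit also called p14 that crosslinks to the branch adenosine, read 810.0, 1057.4 and 1031.9 against 1000.9, 1365.8 and 1383.4. The groups overlapped because both members of pair 1 were low, but each pair rose, by 0.30, 0.36 and 0.42. The mean rise was 0.36 (adjusted p = 0.00309 with the pair as a block and 0.0599 without it). Sf3b4, which binds RNA upstream of the branch point, read 554.7, 510.5 and 490.2 against 652.4, 646.7 and 633.0, and rose by 0.31 (adjusted p = 0.0144). Both calls were lost without pair 3, which left 1 risen gene in this class, and that of Sf3b4 also without pair 2.

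Sf3b2, Sf3b3 and Sf3b5 had values of 0.02, -0.20 and -0.09 and did not pass. Of the SF3A subunits, Sf3a3 (0.24, adjusted p = 0.0643) did not pass, though it passed as risen after median centring (0.39), without the block (adjusted p = 0.0395) and with a random block. Sf3a1 (0.08) and Sf3a2 (-0.20) did not pass. A second, dim Sf3a1 probe set (static mean 18.4) did not pass either (0.36, adjusted p = 0.0745). It passed as risen after quantile normalization (0.51) and median centring (0.51), with a random block and without pair 1.

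U2AF, which recognises the polypyrimidine tract and the AG of the 3′ splice site, was measured through 3 genes. On their brightest probe sets 2 fell and 0 rose (limma, 0 also at an unadjusted p below 0.05). The shares of all genes tested were 30.1% fallen and 27.8% risen. U2af1, the small subunit that contacts the AG, read 720.7, 716.0 and 753.7 on static and 371.6, 465.3 and 604.2 on shear arrays. All sheared values lay below all static ones, with a change of -0.61 (adjusted p = 0.00339). The pairs differed in size, at -0.93 in pair 1, -0.60 in pair 2 and -0.31 in pair 3. U2af2, the large subunit, did not pass on any of its 3 probe sets (0.08, 0.34 and -0.31), and the direction differed between them. Without pair 1 all 3 passed, the brightest (0.27, adjusted p = 0.00395) and the second (0.37, adjusted p = 0.0355) as risen and the last as fallen (-0.41, adjusted p = 0.0289). The second also passed as risen after quantile normalization (0.48) and median centring (0.49). U2af1l4, a paralog of the small subunit, fell by 0.32 (adjusted p = 0.0392), from 83.7, 91.0 and 80.9 to 59.5, 70.0 and 65.1. The U2af1l4 groups did not overlap, but the call was lost after quantile normalization (-0.20) and median centring (-0.18), and without pair 2 or pair 3. A second probe set lay below the filter.

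Proteins of the Sm ring and of the U1 and U2 particles had 4 fallen genes, 0 risen (limma, 0 also at an unadjusted p below 0.05) and 6 not passed of 10, with a median of -0.112. The shares of all genes tested were 30.1% fallen and 27.8% risen. Snrpd1, a core Sm protein, had the largest change of the class: 303.3, 292.5 and 290.2 on static and 147.6, 162.1 and 171.5 on shear arrays. The groups did not overlap, and the change was -0.82 (adjusted p = 0.000365). A second Snrpd1 probe set, described below, did not pass (0.10). Snrpf, another ring protein, fell by 0.28 (adjusted p = 0.00916), from 1219.9, 1109.6 and 1194.7 to 991.0, 893.8 and 1004.5. Snrpa, the U1 A protein, fell by 0.38 (adjusted p = 0.0225), from 288.1, 262.5 and 281.1 to 183.9, 214.1 and 234.1. Both sets of arrays were separate, yet Snrpf and Snrpa did not pass after median centring (-0.13 and -0.23), and neither passed without pair 2 or without pair 3.

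Snrpn, a tissue-restricted relative of Snrpb, was dim, at 22.2, 33.9 and 24.3 against 19.3, 20.3 and 10.4. It fell by 0.39 (adjusted p = 0.0477), a call that was lost without the block, after either scaling, without the filter, with a pseudocount of 1 and without pair 2 or pair 3. The ring proteins Snrpb, Snrpd2, Snrpd3 and Snrpe had values of -0.08, -0.08, -0.05 and -0.14, with 95% intervals that together ran from -0.31 to 0.14, and did not pass; Snrpe passed as fallen after quantile normalization (-0.26). The U2 proteins Snrpa1 (-0.04) and Snrpb2 (0.19) did not pass, though Snrpb2 passed as risen after median centring (0.34) and without pair 1. After median centring 1 gene of this class fell and 1 rose, and 1 fell without pair 2 or without pair 3.

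Probe sets of 1 gene often did not move together. Of 16 member genes with several tested probe sets, 2 had all of them called in the same direction (Srsf11 and Hnrnph3), 2 had calls in both directions (12.5%; 5.31% of all 3410 such genes), 9 had some called and some not, and 3 had none called. The difference itself was tested as the log2 signal of the brightest probe set minus that of each other probe set, in limma with the pair as a block and without the intensity trend, adjusted over all such pairs of probe sets. It passed for 13 of 30 member pairs (43.3%; 36.0% of all 4732), in 10 genes. Where each probe set lies in its transcript was not used here, and neither was a check of probes against paralogs or processed pseudogenes.

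Hnrnpa1 had 1 probe set at 1511.5, 1549.2 and 1606.5 on static and 843.7, 828.7 and 859.6 on shear arrays, a change of -0.87 (adjusted p = 3.2e-05). A second fell by 0.88, from 708.1 ± 41.1 to 378.7 ± 48.2 (SD, n = 3). The third read 402.3, 323.4 and 337.4 against 466.0, 381.7 and 542.5, and rose by 0.36 in 3 of 3 pairs with overlapping groups. The difference between the first and the third was -1.23 (adjusted p = 0.000606), while that between the first and the second was 0.01 (95% interval -0.30 to 0.32). The rise of the last did not hold with no filter, with no intensity trend, or with pair 2 or pair 3 left out.

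Hnrnpa2b1 had 4 probe sets. Beside the brightest, at -1.55, 1 read 881.3, 697.1 and 791.6 against 592.2, 873.5 and 854.6, a value of -0.04 that did not pass. The difference of -1.51 between these 2 passed (adjusted p = 0.000161). In that second probe set the sign depended on the pair, at -0.56, 0.32 and 0.11 for pairs 1 to 3, and without pair 1 it passed as risen (0.21, adjusted p = 0.0111). The other 2 had values of -0.60, which passed as fallen, and -0.13, which did not.

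Hnrnpa3, a close relative of Hnrnpa2b1, had 5 probe sets with values of -0.10, -1.17, 0.08, -1.53 and -0.50, of which the -1.17, -1.53 and -0.50 passed. The call at -0.50 was lost without pair 2 or without pair 3. The brightest read 2529.3, 2424.5 and 2376.0 on static and 2081.7, 2431.1 and 2312.4 on shear arrays, with overlapping groups. After quantile normalization it passed as fallen (-0.25, limma adjusted p = 0.0208). The next read 1503.8, 1533.0 and 1582.2 against 670.2, 675.3 and 685.9, with the groups far apart. The difference of 1.06 between these probe sets passed (adjusted p = 0.000718), as did that of 1.43 between the brightest and the -1.53 probe set (adjusted p = 0.000703). Averaged over 5 probe sets, Hnrnpa3 fell by 0.65 (adjusted p = 0.00124).

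Hnrnpu, a nuclear scaffold protein that binds RNA and chromatin, had a brightest probe set at 1593.5, 1655.1 and 1704.4 on static and 1572.8, 1922.4 and 1722.2 on shear arrays, which did not pass (0.07). A second fell by 1.03, from 516.0, 611.2 and 631.3 to 255.1, 301.1 and 281.2, and differed from the brightest by 1.10 (adjusted p = 0.000551). The dimmest rose by 0.56, from 50.2 ± 13.8 to 80.4 ± 4.36 (SD, n = 3), and its difference from the brightest did not pass (-0.49, adjusted p = 0.0725). The fall and the rise were called under every alternative setting tried.

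Srsf1, the founding SR protein of the family, had a brightest probe set at 913.9, 970.9 and 925.6 against 824.4, 947.0 and 953.8, which did not pass (-0.05). Its second probe set read 228.2, 229.6 and 238.2 against 113.1, 93.9 and 78.1, a change of -1.17 (adjusted p = 0.00017). The difference of 1.12 passed (adjusted p = 0.0013), and as a mean over both probe sets Srsf1 fell by 0.61 (adjusted p = 0.000991). Srsf10, an atypical SR protein that acts as a repressor when dephosphorylated, had 5 probe sets, of which 1 fell (-0.66, from 151.1 ± 14.6 to 89.5 ± 4.04, SD, n = 3) and 4 did not pass. The fallen one differed from the brightest by 0.58 (adjusted p = 0.0101).

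Snrpd1 had a second probe set at 133.9, 190.9 and 134.5 against 198.1, 154.4 and 141.8, which did not pass (0.10) and differed from the fallen one by -0.92 (adjusted p = 0.00697). In Sf3b1 the third probe set (-0.18, not passed) differed from the brightest by 0.71 (adjusted p = 0.00506), and the average of the 3 Sf3b1 probe sets did not pass (0.31, adjusted p = 0.0612). In Hnrnpdl the difference of 0.86 from a dim probe set (15.6 ± 2.61 to 9.90 ± 3.08, SD, n = 3) passed. The Hnrnph3 probe sets, both fallen, differed by 0.88 (adjusted p = 0.00289). With a pseudocount of 1 in place of 16, 11 of the 13 differences were called; those of Snrpd1 (adjusted p = 0.0609) and of the -0.60 probe set of Hnrnpa2b1 (adjusted p = 0.0989) were not.

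**Figure D3:**
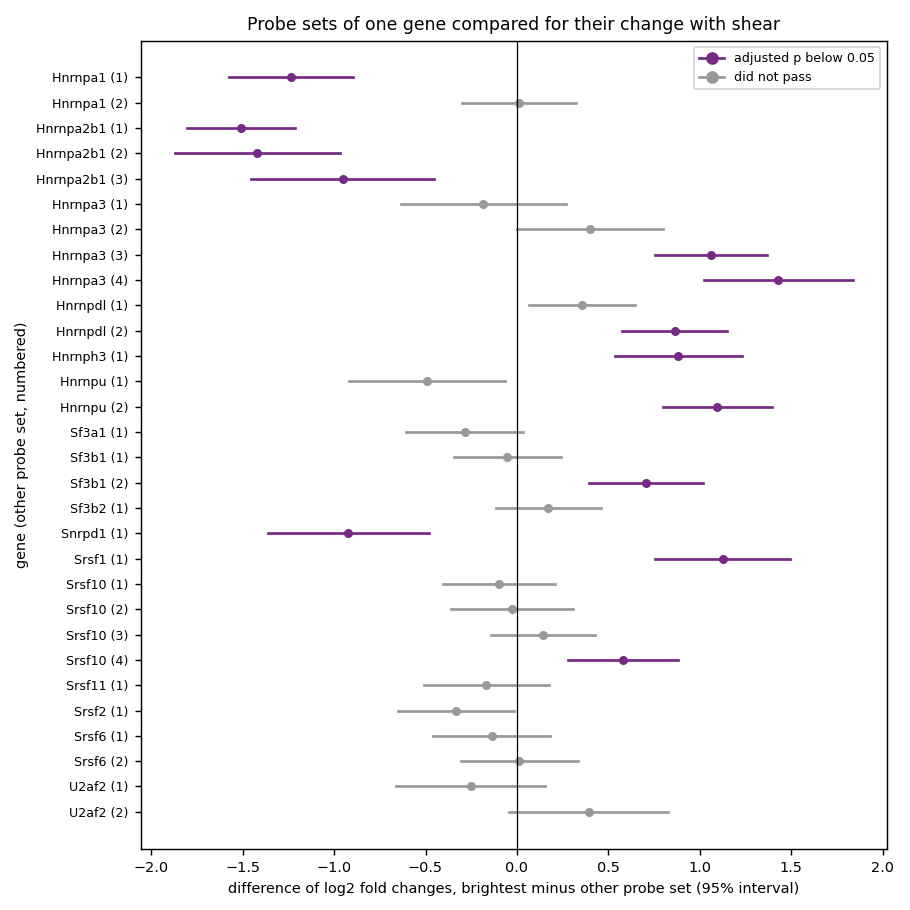
For each of the 30 pairs of probe sets in 16 genes, the point gives the log2 fold change of the brightest probe set minus that of another probe set of the same gene, with its 95% interval. Purple marks the 13 pairs with an adjusted p below 0.05. Hnrnpa2b1 lies furthest to the left, at -1.51, where the brightest probe set fell more, and Hnrnpa3 furthest to the right, at 1.43, where it fell less.

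Genes that work with these proteins were read from 5 lists, whose counts stand beside 27.8% risen and 30.1% fallen of all genes tested. The genes named are those with the smallest p in each list. Of 53 other spliceosome proteins measured, 19 rose, 11 fell and 23 did not pass, with a median of 0.025. These were Lsm4 (627.0 ± 37.6 to 285.9 ± 32.5, SD, n = 3; -1.09), the cyclophilin Ppih of the U4/U6 particle (-1.55, with a second probe set not passing), Lsm3 (-0.83), the PRP19-complex protein Cdc5l (0.78) and Snrnp48 of the minor spliceosome (1.05, with a second probe set not passing). Lsm3 and Lsm4 belong to the Sm-like ring of U6. The risen count was 10 without pair 2 and 11 without pair 3, and the fallen count 6 after median centring.

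Of 43 other splicing regulators tested, 11 rose, 17 fell and 15 did not pass, with a median of -0.031. Khdrbs3, a STAR-family RNA-binding protein, fell by 1.59 and its relative Khdrbs1 (Sam68) fell by 1.06, from 1016.1, 989.2 and 972.6 to 425.1, 479.8 and 498.0. The paraspeckle protein Nono fell by 0.86 on the brighter of 2 fallen probe sets. Mbnl1, which promotes adult splice forms in muscle, fell by 0.69 on the brightest of 3 fallen probe sets. Luc7l3, a U1-associated SR-like protein, rose by 0.92 on the brightest of 3 risen probe sets, from 531.5 ± 17.8 to 1021.6 ± 127.3 (SD, n = 3). After median centring 17 rose and 15 fell, and the risen count was 17 without pair 1, 6 without pair 2 and 7 without pair 3.

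Kinases that phosphorylate SR proteins or RNA polymerase II, and the importins that carry SR proteins and hnRNPs, had 5 risen, 0 fallen (limma, 1 at an unadjusted p below 0.05) and 8 not passed of 13, with a median of 0.311. Srpk1, the main cytoplasmic SR protein kinase, read 139.7, 111.6 and 133.0 against 241.1, 244.9 and 221.2, and rose by 0.81 (adjusted p = 0.00067), though a second probe set did not pass. Cdk12 (0.73), Dyrk1a (0.57), Clk3 (0.48) and Tnpo3, the SR protein importin (0.37, adjusted p = 0.0374), rose too. The Tnpo3 call was lost with no filter, with no intensity trend and without pair 2 or pair 3 (0.21, adjusted p = 0.335, without pair 3), and the Clk3 call without pair 2 (adjusted p = 0.0686). Without pair 2, 3 rose, and without pair 1, 7 rose and 2 fell.

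Genes for the assembly of Sm rings had 7 risen, 3 fallen and 9 not passed of 19, with a median of 0.103. Strap, the SMN-complex protein also called Unrip, rose by 1.00, from 1140.6 ± 31.8 to 2311.4 ± 321.1 (SD, n = 3; adjusted p = 6.81e-05). Wdr77, the partner of the methyltransferase Prmt5 that modifies Sm proteins, read 604.8, 540.0 and 545.4 against 1013.4, 1126.0 and 1073.0, and rose by 0.91 (adjusted p = 9.39e-05). Smn1, the survival motor neuron protein, read 265.6, 247.6 and 266.6 against 439.1, 498.5 and 497.0, and rose by 0.84 (adjusted p = 0.000236). Riok1, another Prmt5 partner, rose by 1.10, whereas Gemin8 of the SMN complex fell by 0.79.

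Of 7 nonsense-mediated decay genes measured, 2 rose, 0 fell (limma, 0 also at an unadjusted p below 0.05) and 5 did not pass, with a median of 0.208. Smg8, a regulator of the Smg1 kinase, rose by 1.40, from 54.8 ± 2.33 to 171.2 ± 24.0 (SD, n = 3), and its partner Smg9 by 0.54. Upf2 (0.21), Upf3b (0.16) and Smg5 (0.26, with 1 of its 3 probe sets risen) did not pass, and after median centring 5 of the 7 rose.

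**Figure D4:**
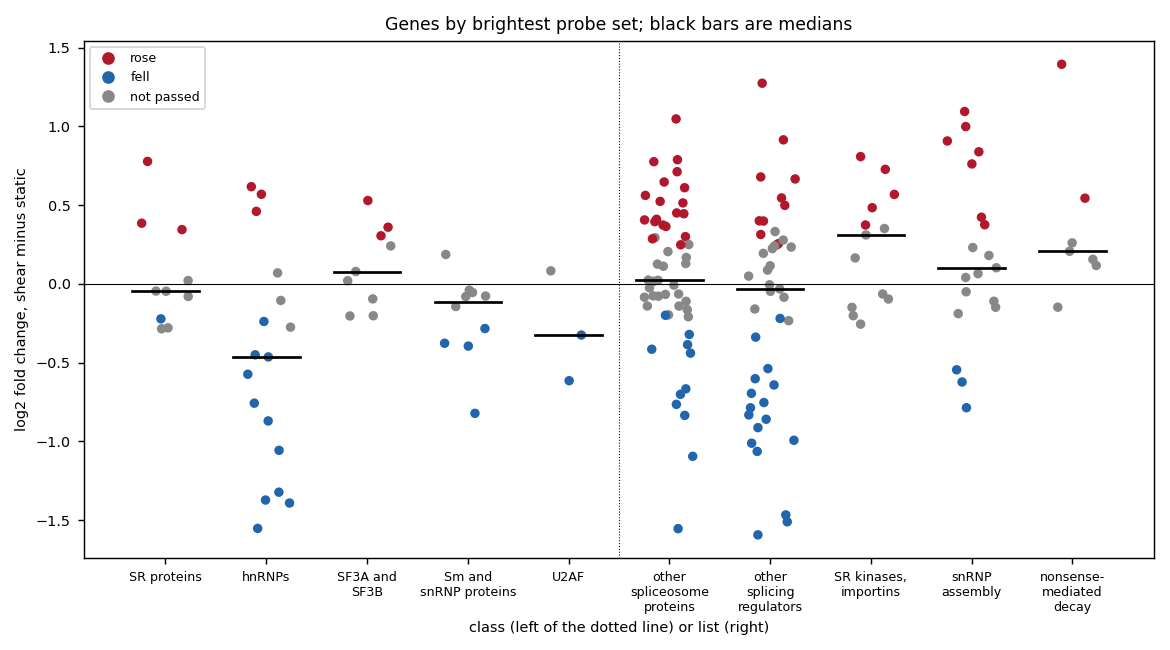
The log2 fold change, shear minus static, of each tested gene by its brightest probe set is plotted for the 5 classes, left of the dotted line, and the 5 lists, right of it; black bars are medians and points are spread sideways for legibility. Medians run from -0.463 for hnRNPs to 0.311 for SR kinases and importins. The SF3 class, the SR kinase list and the nonsense-mediated decay list hold no blue point, and the Sm and U2AF classes hold no red one.

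Promoters were looked at because 11 hnRNP genes fell and 3 SF3B genes rose in the same cells. RefSeq's table for build GRCr8 held the window from 250 bases before to 50 after the annotated start for 46 of the 50 genes. The 250 bases before the start are shown for Srsf11 and Hnrnpf, which rose most, and Hnrnpa2b1 and Hnrnpr, which fell most, 5′ to 3′ on the gene's strand, with capitals marking CCGGAA, the core of ETS-family sites, or CCAAT, the NF-Y box, on either strand.
Srsf11, chr2:249760259-249760508, minus strand: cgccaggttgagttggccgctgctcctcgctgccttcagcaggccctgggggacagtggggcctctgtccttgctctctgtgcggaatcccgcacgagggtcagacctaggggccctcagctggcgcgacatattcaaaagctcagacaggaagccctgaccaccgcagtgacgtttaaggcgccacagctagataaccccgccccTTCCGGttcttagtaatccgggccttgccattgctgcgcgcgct
Hnrnpf, chr4:152755418-152755667, plus strand: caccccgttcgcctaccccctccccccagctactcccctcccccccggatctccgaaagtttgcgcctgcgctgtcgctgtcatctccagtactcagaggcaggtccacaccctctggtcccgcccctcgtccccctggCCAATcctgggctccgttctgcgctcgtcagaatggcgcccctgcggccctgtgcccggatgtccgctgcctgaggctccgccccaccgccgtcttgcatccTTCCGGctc
Hnrnpa2b1, chr4:81875887-81876136, minus strand: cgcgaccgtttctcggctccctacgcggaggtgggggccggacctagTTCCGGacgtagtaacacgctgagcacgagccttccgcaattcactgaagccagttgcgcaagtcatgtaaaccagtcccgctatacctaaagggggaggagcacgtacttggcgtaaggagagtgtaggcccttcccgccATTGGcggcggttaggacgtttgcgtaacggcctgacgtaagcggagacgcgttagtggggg
Hnrnpr, chr5:153826269-153826518, plus strand: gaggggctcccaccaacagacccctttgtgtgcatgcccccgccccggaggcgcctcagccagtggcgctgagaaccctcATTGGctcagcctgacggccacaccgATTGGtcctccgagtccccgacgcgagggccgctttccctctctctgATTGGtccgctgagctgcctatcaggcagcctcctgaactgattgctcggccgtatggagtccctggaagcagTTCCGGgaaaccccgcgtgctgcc
Each of the 4 held CCGGAA at 1 place, on the other strand and so printed TTCCGG. The NF-Y box, printed ATTGG where it lies on the other strand, stood at 0 places in Srsf11, 1 in Hnrnpf, 1 in Hnrnpa2b1 and 3 in Hnrnpr. Over the whole windows, CCGGAA was in 22 of 46 member promoters (47.8%), beside 28.3% of the 9345 tested genes with a promoter in the table and 15.8% of all 27457 promoters. It was in 6 of 9 risen genes, 5 of 17 fallen genes and 11 of 20 that did not pass. CCAAT was in 25 of 46 (54.3%), beside 37.9% of tested genes and 37.7% of all promoters, and in 3 of 9 risen, 12 of 17 fallen and 10 of 20 not passed. The E-box CACGTG was in 10.9% of members and 9.68% of tested genes, the full CRE palindrome in 2.17% and 3.27%, and the NRF1 palindrome in 4.35% and 1.95%. Median GC content was 60.7% in members and 61.0% in tested genes. These matches describe letters in the windows and were not tested.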

How the data were processed

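RNA from 6 cultures was hybridised to Affymetrix rat arrays, 1 array per sample. The deposited table held MAS5 signal intensity per probe set on a linear scale, per the submitters' processing notes; from the values, the trimmed mean of each array was 100.037 to 100.041, so the arrays had been scaled to a common mean. Array medians were 21.1 to 22.6 (static) and 17.3 to 18.9 (shear), and the number of arrays limits the precision. Genes came from the platform annotation, and all 50 member symbols matched RefSeq. Values were tested as log2(signal + 16) with limma 3.58.1 in R 4.3.3 (eBayes with an intensity trend), the pair as a block and a Benjamini-Hochberg threshold of 0.05, after removal of 57 control probe sets and of the dimmest 30% by mean signal. Fold changes are on that scale and understate changes of dim probe sets. The script was tested on simulated data.

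The pairing numbers come from the labels, which describe a paired experiment. Deviations from the group means correlated only weakly, at 0.0712, 0.0648 and 0.0626 within pairs 1 to 3. Among the sheared samples, each static sample correlated best with its own partner, and the reverse was not checked. The probe set with the highest mean log2 signal stood for a gene. Members and lists were chosen with earlier results of these data known. Values in every array are given for up to 5 risen and 5 fallen genes per class and for genes whose probe sets differed; up to 5 genes with the smallest p were named per list. Protein sequences were not used here. Alternatives changed the block, normalization, filter, pseudocount, variance model, probe set rule and pairs used.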

Additional observations from a re-analysis of the deposited data

How the results depend on the processing

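Over single genes and settings, 1266 values stayed called in the same direction or stayed uncalled, though 33 of the uncalled ones changed sign. Of the rest, 65 lost the call, 33 gained one and 1 reversed. Of 41 called member probe sets, 24 kept the call in every setting. The reversed value was a probe set of Hnrnpa2b1, -0.04 with all pairs and -0.23 to 0.21 when a pair was left out, the last without pair 1 (adjusted p = 0.0111). Without the pair as a block 9 member genes rose and 16 fell, and 11430 probe sets were called in all; the SR gene that fell, Srsf6, was lost (0 fallen), as with a random block (0), median centring (0) and no intensity trend (0), and 2 SR genes fell after quantile normalization, with a 50% filter and with robust estimation. Median centring gave 11 fallen member genes, a member median of 0.044, 1 risen and 1 fallen Sm gene, 1 fallen U2AF gene, 6 fallen spliceosome genes, 17 risen regulators and 5 risen decay genes, and moved the median of all probe sets to 0.082. Quantile normalization moved that median to 0.020 and gave 1 fallen SF3 gene, 1 fallen U2AF gene and 1 fallen kinase or importin. A 50% filter moved the median to -0.027, and no filter left 1 fallen U2AF gene. With a pseudocount of 1, 922 probe-set pairs differed in place of 1703. As a mean over probe sets 8 member genes rose and 20 fell.

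Leaving out 1 pair at a time gave 8 to 21 risen member probe sets, 5 to 12 risen and 11 to 18 fallen member genes, 1 to 3 risen and 0 to 1 fallen SR genes, 1 to 4 risen SF3 genes, 0 to 1 risen and 1 to 4 fallen Sm genes, and 0 to 1 risen and 1 to 2 fallen U2AF genes. For the lists it gave 10 to 23 risen and 7 to 10 fallen spliceosome genes, 6 to 17 risen regulators, and 3 to 7 risen and 0 to 2 fallen kinases or importins. The count of differing probe-set pairs was 1017 to 1582. The cause of these changes was not tested. Signals near the filter limit (4.50 on the log2 scale) carry the least information, which touches Srsf3, Srsf7, Snrpn and dim second probe sets.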

Other observations

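Of the member genes, 13 had an annotated neighbour on the opposite strand whose start lay within 1000 bases of their own, and 8 of these neighbours were measured. Of the 8 neighbours 6 fell, 1 rose and 1 did not pass, beside 30.1% fallen and 27.8% risen of all genes (57.9% called). Both genes were called in 3 such pairs, in the same direction in 1 (U2af1l4 and Psenen) and in opposite directions in 2. Srsf11, which rose by 0.78, starts 96 bases from Lrrc40, which read 254.0 ± 17.1 on static and 84.4 ± 10.4 on shear arrays (SD, n = 3; -1.43, limma adjusted p = 2.94e-05). Hnrnpdl, which rose by 0.57, starts 257 bases from Enoph1, which fell by 0.39 (limma adjusted p = 0.0295). Psenen, a subunit of gamma-secretase, fell by 0.38 beside U2af1l4 (-0.32). Of the members that did not pass, Snrpd2 (-0.08) lies beside Qpctl, which fell by 1.13, Sf3a2 (-0.20) beside Plekhj1, which fell by 0.92, and Sf3b3 (-0.20) beside Cog4, which fell by 0.78. Snrpd3 (-0.05) lies beside Gucd1, which rose by 0.73, and Srsf2 (0.02) beside Mfsd11, which did not pass (0.09). Neighbours and distances are those of the RefSeq annotation of GRCr8, and this reading was chosen after the values of the members were known.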
